A study of Mus musculus with 6 samples.

Results

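Trk receptors and FGF receptors are receptor tyrosine kinases, and 8 genes of these systems were followed through sorted cells of the mouse amygdala. They were Ntrk2 and Ntrk3, which encode TrkB and TrkC; Bdnf, the ligand of TrkB; Fgfr1, Fgfr2 and Fgfr3, the FGF receptors; and Fgf1 and Fgf2, ligands of those receptors that lack a classical secretion signal. The 8 genes were taken by name from the 32285 genes of the count matrices. Their unique molecular identifiers (UMIs, 1 per captured RNA molecule) were summed over all astrocytes and all pericytes of each library. Astrocytes were barcodes with at least 20 UMIs of the glutamate transporters Slc1a2 and Slc1a3 together and at most 3 UMIs of the pericyte genes Vtn and Rgs5, and pericytes were barcodes with at least 10 UMIs of Vtn and Rgs5 and at most 5 of Slc1a2 and Slc1a3. No member was part of these gates.

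The cells came from wild-type male C57BL/6N mice, young adults that had gone through one of 4 conditions. Mice of the NoFC group received no shock, FC mice were fear conditioned, and FR mice were conditioned and recalled the context a day later. NoFR mice were conditioned but stayed in the home cage without recall. Tissue was taken 90 min after behaviour and dissociated in the presence of inhibitors of transcription and translation. For FC mice that was 90 min after conditioning, whereas the paper places NoFR mice a day after conditioning, with no recall session. FC and NoFR mice therefore also differed in the time since conditioning. Cells were sorted with an antibody against the ACSA2 antigen (ATP1B2). Hashtag antibodies marked each mouse, 4 mice per group, and the mice were pooled in 3 libraries, so that the library is the replicate of the comparisons between cell classes and the mouse is the replicate of the comparisons between groups. The groups were not balanced over the libraries. FC mice were in libraries 1 and 2 only and NoFR mice in libraries 1 and 3 only, so group and library were partly confounded.

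BDNF and NT-3 bind TrkB and TrkC on the cell surface. Full-length receptors phosphorylate adaptor proteins such as SHC and FRS2, which connect them to RAS–ERK signalling, and bind phospholipase C gamma directly. Both Trk genes also give rise to shortened receptors without the kinase domain, and astrocytes are known to carry mostly the shortened form of TrkB. FGF receptors use FRS2, GRB2, GAB1 and SHP2 in the same way, and ERK activity downstream of them induces the ETV transcription factors and the Sprouty, SPRED and DUSP6 proteins, which in turn damp the pathway. Astrocytes are known to express FGFR3 from early in their development.

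The 3 libraries held 13546 barcodes and between 31700569 and 42350059 UMIs each. Of these barcodes, 8757 were astrocytes (2503 to 3557 per library, median 9891 UMIs per cell) and 2260 were pericytes (664 to 880 per library, median 5006 UMIs). All 8 astrocyte markers were detected in the astrocytes, at a summed 18130 to 18810 CPM (UMIs of the gene or list per 1000000 UMIs of the class), against 119.7 to 136.9 for the 8 pericyte markers. In the pericytes the 8 pericyte markers summed to 25590 to 25830, and the astrocyte markers to 875.2 to 968.1, with Gfap at 0 and with most of that sum from Atp1b2, the gene of the sort antigen. Neuronal markers were at 2.26 to 4.03 in pericytes and 10.1 to 14.2 in astrocytes, and microglial markers at 9.61 to 14.2 and 15.4 to 18.9. Pericytes also held smooth muscle markers at 150.9 to 209.1, stromal markers at 224.6 to 258.2 and endothelial markers at 134.0 to 143.6. The stromal sum was mostly Col1a2 (mean 208.4) and the endothelial sum mostly Flt1 (mean 131.0). Of the pericytes, 217 had at least 5 UMIs of Acta2 and Tagln, 3 of Dcn and Lum, or 3 of Cldn5, Pecam1 and Flt1. Astrocytes held oligodendrocyte lineage markers at 1161 to 1213, mostly Cspg5 (mean 1153), and progenitor markers at 54.0 to 94.9. Between 3 and 8 barcodes were shared between any pair of libraries.

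In the GENCODE vM21 annotation of GRCm38, Ntrk2 (ENSMUSG00000055254) lies at chr13:58806569-59133970 on the plus strand. It has 10 transcripts, whose 7 coding transcripts end at 5 different stop codons, so that a UMI of Ntrk2 may come from the full-length receptor or from a shortened one. Ntrk3 (ENSMUSG00000059146) lies at chr7:78175959-78738012 on the minus strand, with 2 stop codon positions among 6 coding transcripts. Bdnf (ENSMUSG00000048482) lies at chr2:109674700-109727007 on the plus strand, and its 11 coding transcripts share 1 stop codon. Fgfr1 (ENSMUSG00000031565) is at chr8:25513654-25575718 on the plus strand and Fgfr3 (ENSMUSG00000054252) at chr5:33721674-33737068 on the plus strand. Fgfr2 (ENSMUSG00000030849) is annotated at chr7:130162451-133123350 on the minus strand, a span that includes many neighbouring genes, and 314 of its exon bases are also exon of Ctbp2 on the same strand. Fgf2 (ENSMUSG00000037225) is at chr3:37348346-37410108 on the plus strand. Of the exon bases of Fgf2, 640 lie opposite exons of Nudt6, the FGF2 antisense gene, and 255 are shared with Gm43439 on the same strand. Exons of Fgfr3 lie opposite G630022F23Rik over 998 bases and those of Bdnf opposite Gm45346 over 896. The paper names a later GENCODE release for the counting, so the gene models counted may differ from those given here. How the counting assigned reads of such stretches was not examined.

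RefSeq transcription starts on GRCm38.p6 gave 12 windows of 250 bases before a start for 5 of the 8 genes. The windows were searched on both strands for TGACG (the cAMP response element half-site), TTGGC (the NFI half-site) and ACAAT (a SOX motif). Of 32851 windows of that length over all genes, 17.8% held the first, 41.5% the second and 27.7% the third. Shown are Ntrk2, which differed most between the cell classes, the window of Bdnf that held a cAMP response element half-site (at the third of its 7 starts), and Fgfr2, which was detected in both classes. Not shown is the window of Fgf2, which held 2 cAMP response element half-sites and had all 250 bases in exons of that gene. Capitals mark the motif matches. The window of Ntrk2 (chr13:58806319-58806568, plus strand) held 2 SOX motifs, that of Bdnf (chr2:109692186-109692435, plus strand) 1 cAMP response element half-site and 1 NFI half-site, and that of Fgfr2 (chr7:130266809-130267058, minus strand) 1 NFI half-site.
Ntrk2: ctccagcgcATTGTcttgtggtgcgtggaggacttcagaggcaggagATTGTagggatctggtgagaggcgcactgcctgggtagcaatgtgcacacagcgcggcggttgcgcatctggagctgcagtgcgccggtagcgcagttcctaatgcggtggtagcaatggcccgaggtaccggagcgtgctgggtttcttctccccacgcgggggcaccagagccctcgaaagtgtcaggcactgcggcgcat
Bdnf: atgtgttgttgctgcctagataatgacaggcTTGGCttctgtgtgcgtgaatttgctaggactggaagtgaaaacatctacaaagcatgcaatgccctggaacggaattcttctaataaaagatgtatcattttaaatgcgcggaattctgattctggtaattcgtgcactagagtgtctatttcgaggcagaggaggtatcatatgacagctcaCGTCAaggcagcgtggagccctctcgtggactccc
Fgfr2: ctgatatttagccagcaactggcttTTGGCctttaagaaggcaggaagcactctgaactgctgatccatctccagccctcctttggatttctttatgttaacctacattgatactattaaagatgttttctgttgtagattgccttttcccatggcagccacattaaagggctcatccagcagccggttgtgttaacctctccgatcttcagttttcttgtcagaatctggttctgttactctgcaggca
The counts do not tell which start a transcript used, and a match of these letters is not evidence of a bound factor.

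Comparing the cell classes asked which of the 8 genes are transcribed in astrocytes and which in pericytes, the mural cells of capillaries that came through the same sort. All 8 genes were higher in astrocytes, but over a wide range. Ntrk2, Fgfr3 and Ntrk3 were nearly absent from pericytes, Fgf1 and Fgfr2 were several-fold lower there, and Fgfr1 and Fgf2 differed least. In the fit over all genes, 79.0% of the 15823 genes tested differed between the classes at an adjusted p under 0.05 and 42.8% were called higher in astrocytes, with a median log2 difference over all genes of 0.11. A call of a single gene therefore says little here, and the size of the difference says more. Each level is a share of the UMIs of its own class and is not divided by gene length, so levels are compared between samples and not between genes. The levels carry no TMM factors (which rescale each sum), whereas the log2 differences come from fits with them. The 2 therefore need not match. With total UMIs in place of TMM factors the median over all genes was -0.10.

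Ntrk2 was at 1396, 1415 and 1362 CPM in the astrocytes of libraries 1 to 3, and at 14.0, 13.3 and 17.2 in the pericytes. The classes did not overlap and the astrocyte libraries lay close together (1391 ± 26.9, SD, n = 3). The log2 difference was 6.77 ± 0.09 (SE; edgeR quasi-likelihood test with Benjamini-Hochberg adjustment, adjusted p = 2.785e-30). The pericyte level was 1.01, 0.94 and 1.26% of the astrocyte level in the 3 libraries. For 4 astrocyte markers that were not part of the gates (Aqp4, Gja1, Aldoc and S1pr1) the same percentage ranged over 0.651 to 1.04, 0.72 to 1.05 and 1.11 to 1.66. The Ntrk2 percentage thus lay within the range of these 4 markers in each library. The other astrocyte markers outside the gates lay outside this range. Gfap was at 0 in pericytes, and Atp1b2, the gene of the sort antigen, stood at 79.0 to 85.1%. Whether the UMIs in pericytes came from astrocyte RNA or from a low level in pericytes was not tested.

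Ntrk3, the TrkC gene, was at 58.7, 58.4 and 68.5 CPM in astrocytes and at 2.26, 1.98 and 3.22 in pericytes (log2 difference 4.85 ± 0.14). In pericytes this came from 29 UMIs in 18 cells. The pericyte level was 3.39 to 4.70% of the astrocyte level, above the range of the same 4 markers in each library. With stricter gates the mean percentage fell to 2.12, from 7 UMIs, against 0.728 to 1.21 for the 4 markers. Library 1 held 6 of these UMIs, library 2 held 1 and library 3 held 0. A level above the 4 markers thus rested on library 1 under these gates.

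Bdnf had the fewest UMIs of the set in both classes. Astrocytes held 106, 47 and 96 of its UMIs, or 2.91, 1.73 and 3.45 CPM, and pericytes held 1, 0 and 3. The 0 in library 2 allows a level of up to 0.848 CPM (3 counts). The log2 difference was 3.19 ± 0.56 (adjusted p = 1.171e-05), and it rests on 4 pericyte UMIs in 3 cells. Without library 3, which held 3 of them, it was 4.37.

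Among the FGF receptors, Fgfr3 came closest to Ntrk2 in its restriction to astrocytes. Its level was 384, 416 and 413 in astrocytes and 9.06, 6.78 and 6.98 in pericytes (log2 difference 5.93 ± 0.10). The pericyte level was 2.36, 1.63 and 1.69% of that of astrocytes, above the highest of the 4 markers in each library, by a small margin in library 3. With stricter gates it rested on 16, 5 and 10 UMIs. In library 2 Fgfr3 was then at 2.94 in pericytes against 419.7 in astrocytes, and the marker Aldoc at 19.4 against 1861. There Fgfr3 no longer lay above all 4 markers. Fgfr2 was at 365.6, 376.5 and 371.1 in astrocytes and 95.5, 90.2 and 98.8 in pericytes, a log2 difference of 2.19 ± 0.06. Fgfr1 was at 169.6, 179.8 and 176.6 in astrocytes and 115.7, 122.9 and 103.3 in pericytes, a log2 difference of 0.84 ± 0.06 (adjusted p = 2.398e-13). So pericytes held 23.9 to 26.6% of the astrocyte level of Fgfr2 and 58.5 to 68.4% of that of Fgfr1, far above the percentage of the 4 astrocyte markers in every library. Atp1b2, the gene of the antigen both classes were sorted for, stood at 79.0 to 85.1%.

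Of the ligands, Fgf1 (ENSMUSG00000036585, annotated at chr18:38838673-38929472 on the minus strand) was at 106.4, 113.6 and 109.8 in astrocytes and 20.6, 19.5 and 25.0 in pericytes (log2 difference 2.56 ± 0.08). Fgf2 was at 19.2, 18.2 and 16.5 in astrocytes and 15.9, 14.4 and 15.3 in pericytes. The Fgf2 ranges did not overlap, but the gap between them was small against their width, and its log2 difference of 0.46 ± 0.12 (adjusted p = 0.0009478) was the smallest of the 8. That call was lost with stricter gates (0.33, adjusted p = 0.08705), with sums per mouse (0.41, adjusted p = 0.3124) and with total UMIs in place of TMM factors (0.24, adjusted p = 0.06685). The last alternative moved the median of all genes from 0.11 to -0.10, and the remaining 7 genes kept their direction and their call under it. Fgf2 was thus not separated between astrocytes and pericytes in a way that held across these settings.

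**Figure D1:**
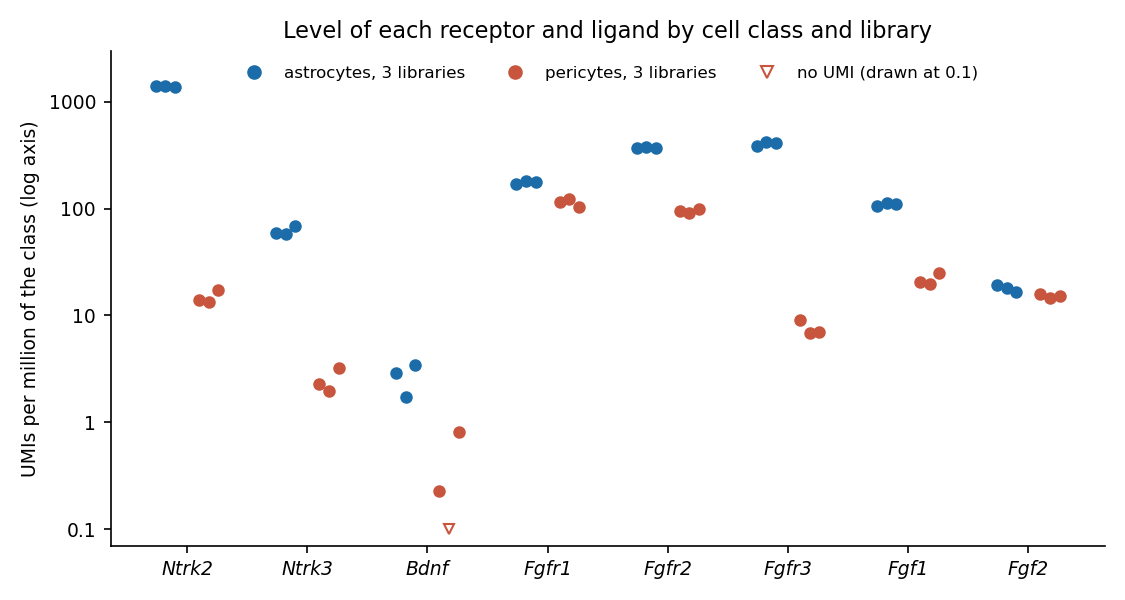
Level of the 8 genes in CPM (log axis) in astrocytes (blue) and pericytes (red), with 1 point per library. Ntrk2, Ntrk3 and Fgfr3 show the widest gaps between classes and Fgf2 the narrowest; the open triangle marks the library in which pericytes held no Bdnf UMI.

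**Figure D2:**
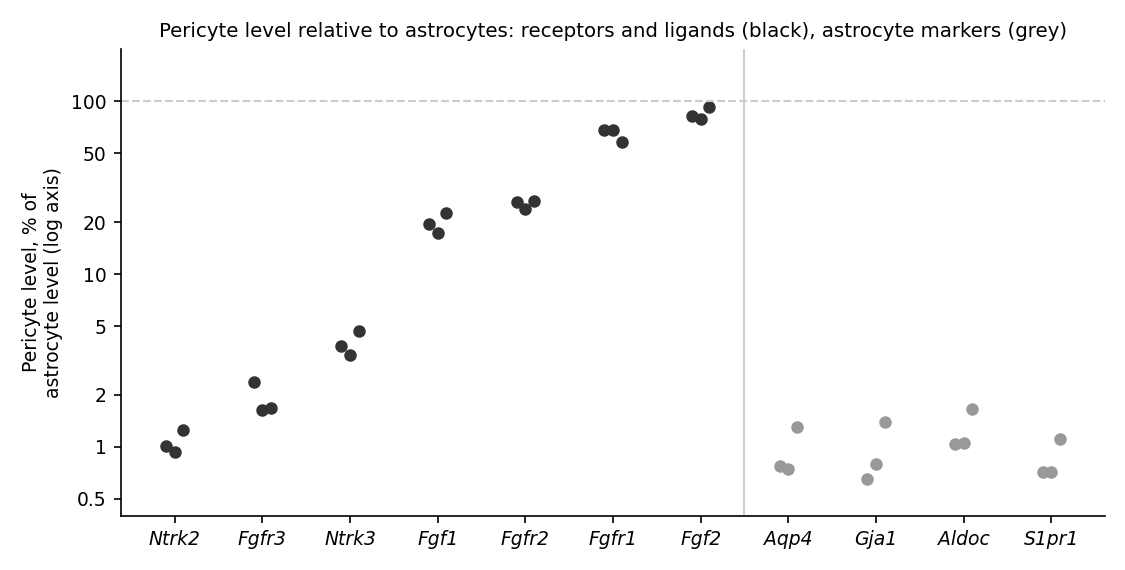
Pericyte level as a percentage of the astrocyte level (log axis) for 7 of the 8 genes (black) and for 4 astrocyte markers that were not used to choose cells (grey), with 1 point per library; Bdnf is left out because of its 4 pericyte UMIs. Ntrk2 lies among these 4 markers, Fgfr3 and Ntrk3 lie slightly above them, and Fgf1, Fgfr2, Fgfr1 and Fgf2 lie far above. The astrocyte markers Gfap and Atp1b2 are not drawn.

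The share of cells with at least 1 UMI described the genes at the level of single cells. Ntrk2 was found in 99.0% ± 0.19 (SD, n = 3 libraries) of astrocytes, Fgfr3 in 91.3% ± 0.83, Fgfr2 in 87.3% ± 0.72, Fgfr1 in 74.6% ± 2.97, Fgf1 in 57.8% ± 2.21, Ntrk3 in 33.2% ± 2.07, Fgf2 in 14.6% ± 1.27 and Bdnf in 2.19% ± 0.52. In pericytes, which were shallower, the shares were 39.4% for Fgfr1, 36.1% for Fgfr2, 8.68% for Fgf1, 7.07% for Ntrk2, 6.73% for Fgf2, 3.72% for Fgfr3, 0.792% for Ntrk3 and 0.131% for Bdnf. To remove the gap in depth, cells were thinned to 3000 UMIs each, which left out 541 astrocytes and 157 pericytes. Fgfr1 was then found in 39.7% of astrocytes and 26.2% of pericytes, Fgfr2 in 63.2% and 23.7%, and Fgf2 in 5.09% and 4.08%, whereas Ntrk2 stood at 97.1% against 4.17%. In pericytes, 160 cells shared the 173 UMIs of Ntrk2, with no cell above 3, while 888 cells shared 1331 UMIs of Fgfr1. Within thinned astrocytes, pairs of FGF receptors were found together about as often as the product of their single shares, with ratios of 0.995 to 1.03 over the pairs and libraries.

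Over the 12 sums of astrocytes, pericytes, barcodes with both marker pairs and unnamed barcodes in the 3 libraries, the genes whose log2 level followed a member most closely were chosen by Pearson's r. For Ntrk2 these were Rgs20 (r = 0.9994), Acot11 and Mir100hg, and for Fgfr3 Slc7a10 (r = 0.9985), Cmtm5 and Appl2. Ntrk3 was followed by Vit, Itih3 and Alpl, Fgfr2 by Trps1, Abi1 and Gk, and Fgf1 by Agbl4, Vcan and 4933432K03Rik. Fgfr1 was followed by Lrrc8a (r = 0.9671), 1700081N11Rik and Slc1a4, and Bdnf and Fgf2 had no partner above 0.9337 and 0.8987. The 12 sums share libraries and fall into cell classes, so that these values describe the classes and are given without a test.

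Partners of the Trk and FGF receptors were described from 4 lists. Of 13 further neurotrophin genes, 10 had enough counts to be tested, of which 5 were higher in astrocytes, 4 were higher in pericytes and 1 was not called (median log2 difference 0.58). These counts were near the shares over all genes, 42.8% higher in astrocytes and 36.2% higher in pericytes. Astrocytes were higher for Shc3, an SHC adaptor of neural cells (136.9 ± 1.10 against 2.18 ± 0.55 CPM, n = 3; log2 difference 6.21), for Sorcs2, a pro-neurotrophin receptor (193.1 against 4.72; 5.55), for Kidins220, a scaffold of Trk receptors (395.2 against 63.2; 2.86), and for Ptprs, a receptor phosphatase (1.05). Pericytes were higher for Shc1, the widely expressed SHC adaptor (70.5 against 12.8; -2.24), for Furin, a protease that cleaves pro-neurotrophins (44.9 against 12.7; -1.61), and for Sort1 (216.3 against 119.6; -0.64). Of the SHC genes, then, Shc3 was higher in astrocytes and Shc1 in pericytes. Ntf3, the TrkC ligand, and Ntf5, a further TrkB ligand, did not reach the count filter.

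Of 16 further FGF ligand and receptor genes, 6 were tested and 5 of these were higher in astrocytes (median log2 difference 2.20), with none higher in pericytes. The shares over all genes were 42.8% higher in astrocytes and 36.2% higher in pericytes. The largest differences were those of Fgf14 (1113 ± 31.2 against 7.56 ± 1.42; 7.41) and Fgf13 (304.5 ± 11.5 against 2.44 ± 0.66; 7.15). Both encode FGF homologous factors, which stay inside the cell and bind sodium channels rather than FGF receptors, so they are no ligands of the receptors above. Fgfrl1, a receptor without a kinase domain, was at 40.7 against 10.1 (2.24), and Klb, a co-receptor of hormone-like FGFs, at 0.68 against 0.18 (2.15, adjusted p = 0.0361). Fgfr4 and 9 further genes, among them Fgf9 and Fgf10, did not reach the filter. Fgf20, a secreted ligand, was called at 0.71 and Fgf18 was not called (1.57, adjusted p = 0.08014). With total UMIs in place of TMM factors, 3 of the 6 were called higher in astrocytes, and DESeq2 also called 3 of 6. Without library 1 the number was 3 of 5 tested, and with stricter gates 3 of 4. The pericyte level of Klb (0.18 ± 0.16, SD) rested on very few UMIs.

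Of the 8 adaptor genes, 5 were called higher in pericytes, 1 higher in astrocytes and 2 were not called (median -0.39), against 36.2% of all genes called higher in pericytes. Gab1 was at 379.0 ± 10.5 in pericytes against 83.8 ± 4.13 in astrocytes (-1.96), Gab2 at 221.9 against 79.7 (-1.26), Ptpn11, which encodes SHP2, at 84.3 against 36.0 (-1.01), and Grb2 at 94.0 against 52.4 (-0.63). The small difference of Sos1 towards astrocytes (0.23) went to 0.01 with total UMIs in place of TMM factors, under which 6 adaptors were higher in pericytes and none in astrocytes.

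Of the 14 feedback regulators and target genes of the pathway, 12 were tested, of which 5 were higher in astrocytes and 7 in pericytes (median -0.83). Among all genes tested, 42.8% were called higher in astrocytes and 36.2% higher in pericytes, so the count towards astrocytes was near the share over all genes. Astrocytes were higher for the ETV factors Etv4 (85.1 ± 5.79 against 1.72 ± 1.10; 5.84) and Etv5 (88.8 against 31.7; 1.70) and for Spred3 (2.50) and Spred1 (0.56). Pericytes were higher for the Sprouty genes Spry1 (74.9 ± 6.72 against 0.67 ± 0.28; -6.62) and Spry4 (109.9 ± 4.66 against 10.2 ± 0.41; -3.21), for Etv1 (193.3 against 43.0; -1.95), and for Egr1, an immediate early gene (27.8 ± 13.4 against 0.24 ± 0.12; -6.64). Within both families the direction was mixed, since Etv4 and Etv5 were higher in astrocytes and Etv1 in pericytes, and Spry2 (0.40) was higher in astrocytes and Spry1 and Spry4 in pericytes.

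To describe how the 8 genes varied among astrocytes, astrocytes of each library were divided by 3 genes outside the set: Igfbp2, which encodes an insulin-like growth factor binding protein; Agt, the angiotensinogen gene, expressed in the brain mainly by astrocytes; and Gfap, the intermediate filament gene. Cells with 2 or more UMIs were compared with cells with 0 UMIs, as sums per library. Levels of the 8 genes on each side are TMM-scaled CPM, and those of list genes and markers are CPM without TMM factors. The cells with 2 or more UMIs were also deeper (medians of 12235 to 12725 against 8893 to 9651 UMIs for Igfbp2), so each comparison was repeated after thinning every cell to 3000 UMIs before it was assigned.

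Igfbp2 gave the widest separation. Across all genes, 38.7% of 14820 were called, and 5 of the 8 members were: Ntrk3 and Ntrk2 were lower in Igfbp2 cells, and Bdnf, Fgfr1 and Fgfr2 higher. Ntrk3 was at 37.1, 38.3 and 42.0 TMM-scaled CPM in Igfbp2 cells of libraries 1 to 3 and at 68.0, 69.0 and 79.5 in cells without Igfbp2. No library of one side reached the other (log2 difference -0.88 ± 0.06, adjusted p = 2.302e-11), and the difference was -1.10 in thinned cells. How common such a full separation by Igfbp2 was among all genes was not counted. Ntrk2 was at 1257, 1265 and 1180 against 1461, 1491 and 1422, a difference that was small but larger than the spread of either side (-0.24 ± 0.03, and -0.23 in thinned cells).

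Bdnf went the other way. Igfbp2 cells held 55, 24 and 52 of its UMIs, or 6.19, 4.00 and 7.78 TMM-scaled CPM. Cells without Igfbp2 held 45, 19 and 33, or 1.86, 1.04 and 1.75. The lowest Igfbp2 library lay above the highest of the other side (log2 difference 1.93 ± 0.22, adjusted p = 3.009e-07). In thinned cells, which keep few Bdnf molecules, the difference was 0.82 and was not called (adjusted p = 0.5605). Fgfr1 was at 190.7 ± 7.91 against 169.2 ± 5.71 (SD, n = 3; 0.17) and Fgfr2 at 395.5 ± 10.4 against 359.7 ± 11.1 (0.14). Neither call held in thinned cells, where Fgfr1 was at -0.08 and Fgfr2 at 0.04. Fgfr3 (422.3 ± 29.3 against 399.9 ± 14.6), Fgf1 and Fgf2 were not called.

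The feedback regulators and target genes differed in 1 direction between the same cells: all 11 that were tested were called higher in Igfbp2 cells (median log2 difference 0.35), against 19.6% of all genes called in that direction. Dusp6, an ERK phosphatase, was at 29.0, 23.7 and 24.6 CPM in Igfbp2 cells and at 14.0, 11.3 and 11.4 in the others (1.09 ± 0.09). Etv4 was at 111.7, 113.0 and 126.2 against 67.9, 70.3 and 77.1 (0.72 ± 0.04). Spry2 was at 128.0, 128.8 and 134.8 against 97.1, 98.8 and 102.2 (0.41 ± 0.04). Both sides were apart in each library for these genes, as they were for Spry4 (13.6, 15.1 and 14.3 against 8.60, 8.33 and 8.81, log2 difference 0.75 ± 0.11). The number of all genes that were apart in this way was not counted. Spry1, with 4 to 18 UMIs per sum, had the largest fitted difference (1.44 ± 0.52), but its levels overlapped between the sides. In thinned cells 10 of the genes could be tested, and 9 had a difference above 0, with a median of 0.45. Of these, 4 were called, Dusp6 (1.27), Etv4 (0.79), Etv1 (0.51) and Spry2 (0.42). Among all 12067 genes tested in thinned cells, 1385 were called higher in Igfbp2 cells. The number called was 8 without the 357 astrocytes that held 2 or more UMIs of the progenitor markers Sox11, Top2a, Mki67 and Dlx1, 7 with DESeq2, and 8 or 9 without 1 library.

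Of the 8 adaptors, 5 were lower in Igfbp2 cells, Gab2 (-0.35), Sos1 (-0.28), Cbl (-0.27), Gab1 (-0.24) and Frs2 (-0.19), and none was higher, against 19.1% of all genes called lower in Igfbp2 cells. In thinned cells only Gab2 was called (-0.67), where 1165 of all 12067 genes tested were called lower. Fgfrl1 was higher (0.65, and 0.61 in thinned cells) and Fgf14 and Fgf13 were lower (-0.47 and -0.22), and of the 9 neurotrophin genes tested Sorcs2 (-0.39), Plcg1, which encodes phospholipase C gamma 1, Ptprs and Sort1 were lower. The summed progenitor markers were at 17.6 to 23.1 in Igfbp2 cells and 70.6 to 126.2 in cells without Igfbp2, the neuronal markers at 7.72 to 11.3 and 11.4 to 16.2, and the astrocyte markers at 19910 to 20480 and 17340 to 18180. Their part in the differences was not tested. Without the 357 cells named above, the same 5 members were called and Bdnf (1.87), Ntrk3 (-0.97) and Ntrk2 (-0.29) kept their sizes.

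**Figure D3:**
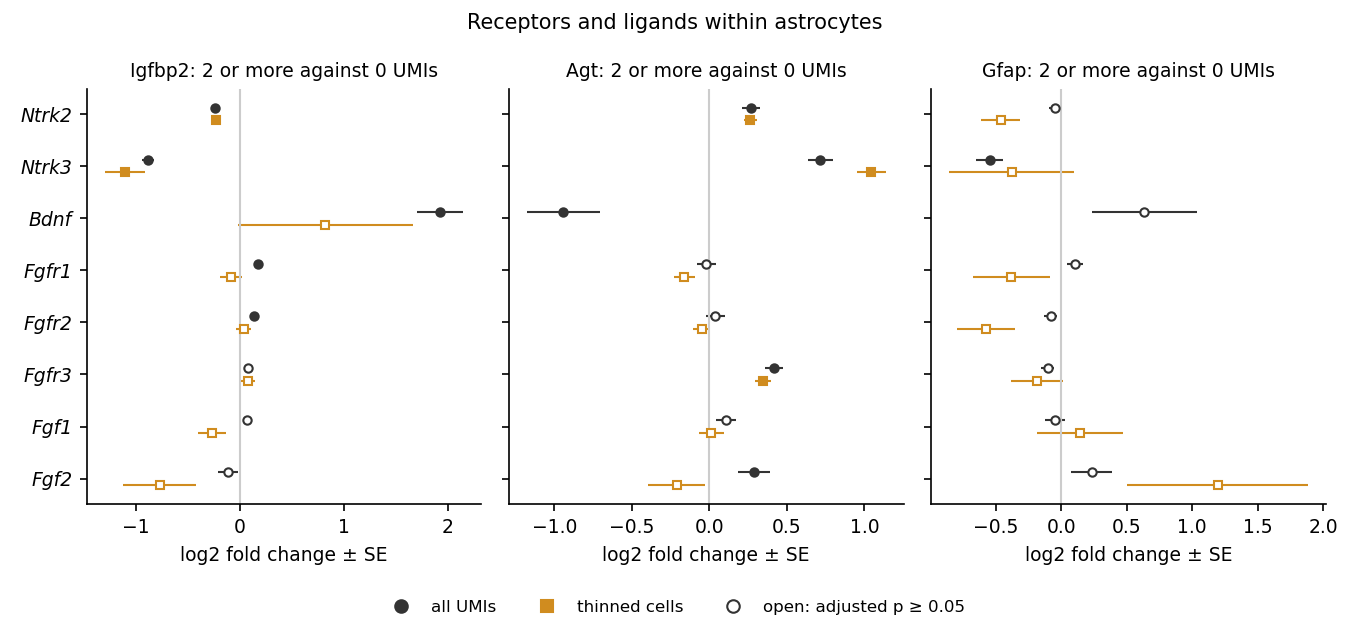
Log2 difference ± SE (3 libraries) of the 8 genes between astrocytes with 2 or more and with 0 UMIs of Igfbp2, Agt or Gfap, for all UMIs (circles) and for cells thinned to 3000 UMIs (squares). Filled symbols passed an adjusted p of 0.05. Ntrk3 lies to the left of 0 for Igfbp2 and to the right for Agt in both forms of the comparison. Bdnf passed only with all UMIs, and for Agt and Gfap it was not among the 7 genes tested in thinned cells.

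**Figure D4:**
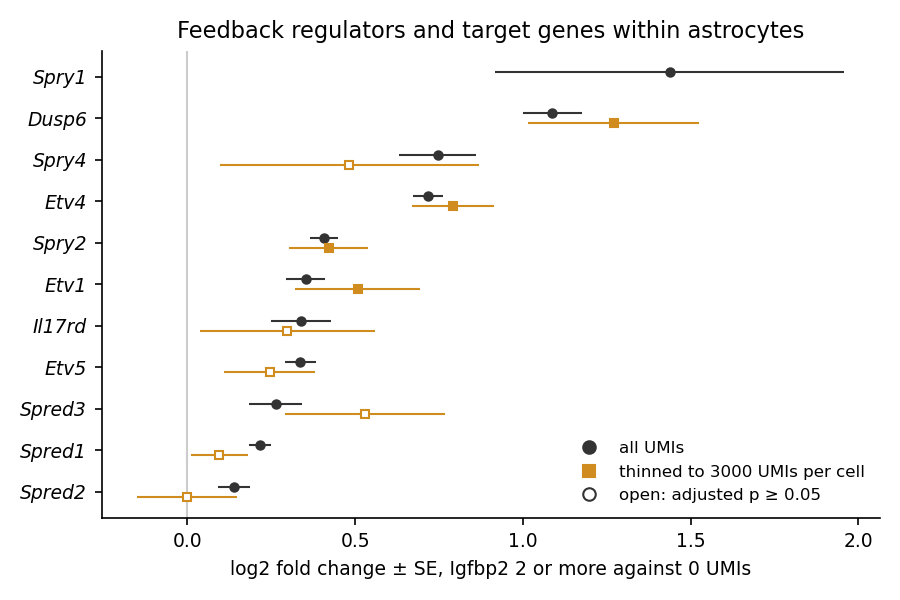
Log2 difference ± SE (3 libraries) of the 11 feedback regulators and target genes tested between astrocytes with 2 or more and with 0 UMIs of Igfbp2, for all UMIs (circles) and thinned cells (squares, missing for Spry1). Filled symbols passed an adjusted p of 0.05; all circles lie to the right of 0, from Spred2 at 0.14 to Spry1 at 1.44.

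Agt divided the members in the opposite sense for the Trk genes. Here 26.5% of 14794 genes were called, and 5 of the 8 members were. Ntrk3 was at 78.6, 71.6 and 79.7 in Agt cells and at 39.3, 45.1 and 57.7 in cells without Agt (log2 difference 0.72 ± 0.08, adjusted p = 1.055e-08). Fgfr3 was at 433.5, 462.5 and 452.6 against 324.9, 347.9 and 336.6 (0.42 ± 0.06, adjusted p = 1.52e-06), and Ntrk2 at 1503, 1529 and 1459 against 1256, 1296 and 1180 (0.27 ± 0.06). For each of the 3 genes every library of Agt cells lay above every library of the others. How many of all genes separated in this way was not counted. All 3 remained called in thinned cells (1.04, 0.35 and 0.26), where 1895 of the 11928 genes tested were called. The call of Ntrk2 was lost without library 3 (0.25, adjusted p = 0.2013). Bdnf was lower in Agt cells, at 2.34, 1.19 and 2.59 against 4.37, 2.60 and 4.80 (-0.94 ± 0.24, adjusted p = 0.002691). The highest Agt library and the lowest of the other side lay next to each other at 2.59 and 2.60. The gene was not called by DESeq2 (adjusted p = 0.128), and in thinned cells it was not among the 7 members tested. Fgf2 was called at 0.29 ± 0.10 (adjusted p = 0.03337), but lost the call under several alternatives and stood at -0.21 in thinned cells. Fgfr1, Fgfr2 and Fgf1 were not called.

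Of the feedback regulators and targets, 3 of 10 tested were lower in Agt cells (Etv4, Etv5 and Spred2) and none was higher, against 14.0% of all genes called lower; without the progenitor-marker cells 6 were lower, and without library 3 none was called. Progenitor markers summed to 15.9 to 20.2 in Agt cells and 164.3 to 246.4 in cells without Agt, and neuronal markers to 7.10 to 8.94 and 18.3 to 30.9. Astrocyte markers were at 18770 to 19410 against 16500 to 17390, and the mitochondrial share was 2.00 to 2.06% against 2.51 to 2.61%. The part of any of these in the differences was not tested. Without the progenitor-marker cells, Ntrk3 (0.64), Fgfr3 (0.30), Ntrk2 (0.17) and Bdnf (-1.12) were still called and Fgf2 was not (0.17, adjusted p = 0.2473). The Agt and Igfbp2 comparisons share cells. Of Agt cells, 13.6 to 15.2% had 2 or more Igfbp2 UMIs, against 19.6 to 24.2% of cells without Agt, and the opposite signs of Ntrk3 and Bdnf in the 2 comparisons are therefore not separate observations.

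For Gfap, which few cells carried (125 to 144 per library against 2056 to 3008 without), 8.19% of 14563 genes were called and 1 of the 8 members was. Ntrk3 was at 46.0, 36.1 and 50.6 in Gfap cells and at 59.9, 63.8 and 70.5 in the others (-0.55 ± 0.10, adjusted p = 8.284e-05), without overlap. The number of all genes without overlap was not counted here either. In thinned cells, where 17 to 20 Gfap cells per library remained, no member was called and Ntrk3 was at -0.38 ± 0.48. The median over all genes was -0.31 there, so Ntrk3 lay close to the typical gene. With so few cells, the loss of the call says nothing about the difference. Summed neuronal markers were at 5.44 to 7.76 in Gfap cells and 10.3 to 15.0 in the others, and progenitor markers at 17.2 to 60.5 and 55.6 to 107.6; their part was not tested. Of the Gfap cells, 31.2 to 43.8% had 2 or more Igfbp2 UMIs, against 16.0 to 16.9% of those without Gfap. None of the 11 feedback regulators and targets tested was called with Gfap.

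The behaviour groups were compared to ask whether conditioning or recall altered these genes. A cell was given to a mouse where its top hashtag had at least 10 UMIs and at least 3 times the next, which held for 335 astrocytes (3.83%) and 1024 pericytes (45.3%). A further 111 astrocytes and 538 pericytes passed with a hashtag that the hashtag table does not list for their library and were not used. How many of the cells that were used had a wrong hashtag was not measured, which limits all comparisons between groups. All 16 mice had 36 to 110 pericytes. Only 11 mice had the minimum of 5 astrocytes (2 NoFC, 2 FC, 4 NoFR and 3 FR), and FC mouse 1 alone gave 159 of the 335. Both of these FC mice came from library 1, and the NoFC mice from libraries 1 and 2. In astrocytes 6 of the 8 members were tested and in pericytes Fgfr1 and Fgfr2 were, with the rest below the count filter.

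No member was called between any pair of groups in either class. In astrocytes the share of the 3390 genes tested that called was 0.0295% when FC and NoFC mice were compared, 0.0885% between NoFR and NoFC mice, 0.0295% between FR and NoFC mice, and 0.0% in the other pairs, and 89 to 134 genes per pair had an unadjusted p under 0.05. Over the 36 tests of members by edgeR, the lowest adjusted p was 0.9648 and 1 had an unadjusted p under 0.05. In pericytes 0.988% of 6884 genes were called for NoFR against NoFC, 0.436% for NoFR against FC and 0.0872% for FR against NoFR, and 0.0% for the others. The lowest adjusted p of the 12 member tests there was 0.8837. None of the genes of the 4 lists was called in any pair.

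In astrocytes Ntrk2 was at 1512 and 1806 in NoFC mice, 1593 and 1836 in FC mice, 1989, 2074, 1667 and 1341 in NoFR mice, and 1491, 1663 and 1923 in FR mice (TMM-scaled CPM). The ranges of the 4 groups overlapped. The pair with its lowest p was NoFR against NoFC, with a log2 difference of 0.18 ± 0.35 in the fit with library as a term. Fgfr3 had means of 527.9 ± 46.0 in the 2 NoFC mice, 501.8 ± 107.8 in the 2 FC mice, 478.6 ± 97.1 in the 4 NoFR mice and 500.1 ± 131.3 in the 3 FR mice (SD), and Fgfr2 means of 331.1 to 374.4. Ntrk3 ranged from 32.7 to 156.4 over the mice, with 1 to 96 UMIs per mouse, and the pair with its lowest p was FR against FC at 1.20 ± 0.58 (adjusted p = 0.9999). For Fgfr1 that pair was FC against NoFC, at 104.3 and 134.9 in NoFC mice against 242.8 and 153.0 in FC mice (1.00 ± 0.53, adjusted p = 0.9989), values that did not overlap but came from 8 and 13 UMIs on the NoFC side. These errors were large, and smaller differences were not detectable at this depth. Bdnf gave 9 UMIs in the astrocytes of all 11 mice and was not tested.

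In pericytes Fgfr1 had means of 128.9 ± 33.5 in NoFC mice, 138.3 ± 18.7 in FC mice, 110.9 ± 30.4 in NoFR mice and 127.1 ± 36.1 in FR mice (SD, n = 4 each). Fgfr2 had means of 88.6 ± 22.5, 99.4 ± 27.8, 96.0 ± 15.6 and 112.2 ± 29.1 in the same order. All 4 groups overlapped for both genes. The difference with the lowest p was that of Fgfr2 for FR against NoFC, 0.30 ± 0.21, with an interval of 2 SE either side from -0.13 to 0.72. That of Fgfr1 was -0.10 ± 0.20.

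Whether an effect of group differed between astrocytes and pericytes of the same mice was tested as an interaction over 7444 genes. Relative to NoFC mice, 0.0134% of these genes were called with FC mice and the same 0.0134% share with FR mice, against 0.0% in the other pairs, and no member was among them in 42 tests (lowest adjusted p 1.0, with 2 at an unadjusted p under 0.05). These were Ntrk3 for FR against NoFC (3.74 ± 1.89) and Fgf1 for FR against NoFR (1.49 ± 0.67). Over all 4 mice of each group, FR pericytes held 0 Ntrk3 UMIs and NoFC pericytes 6. The fit itself used only the mice with at least 5 cells of both classes. In the pair with the lowest p of each, the remaining 5 members had estimates of -0.89 to 1.38 with errors of 0.51 to 1.32.

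**Figure D5:**
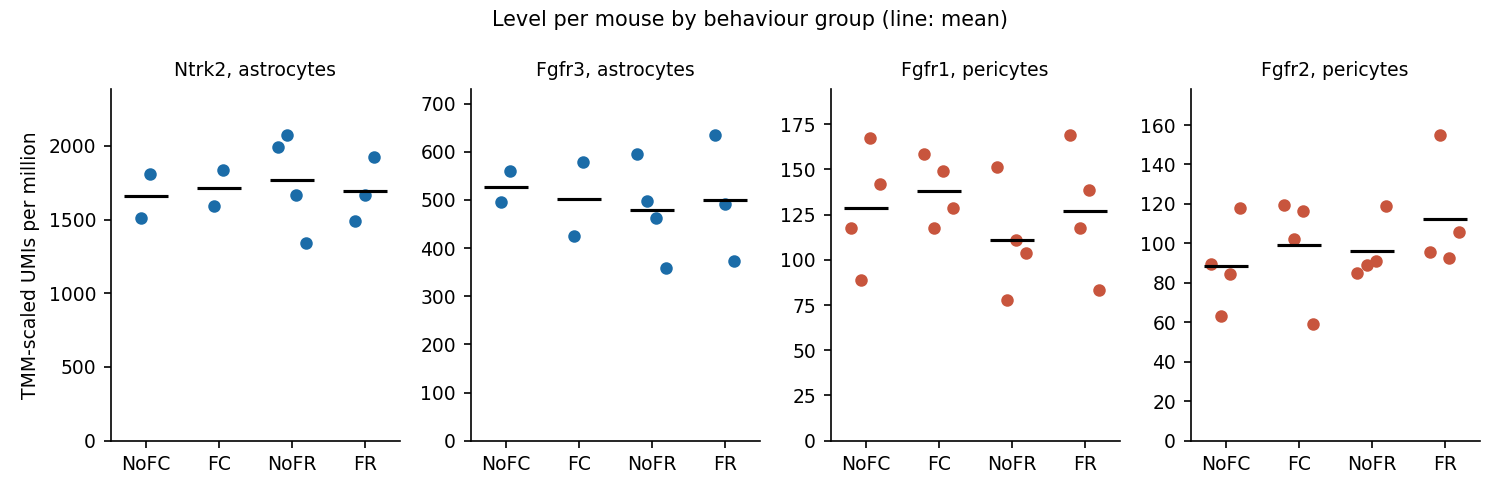
TMM-scaled CPM of Ntrk2 and Fgfr3 in astrocytes (blue) and of Fgfr1 and Fgfr2 in pericytes (red), with 1 point per mouse and a line at the mean of each group. The points of the 4 groups overlap in each panel, and astrocyte values rest on 2 to 4 mice per group.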

How the data were processed

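Single-cell gene expression was measured by droplet sequencing with hashtag antibodies. The authors deposited UMI counts per gene and barcode, made with Cell Ranger on mm10; the submitters' processing notes name version 3.0 and the matrix headers 7.0.0. The barcodes had not been passed through the study's filters on mitochondrial share and pericyte content, and all were used. No columns of per-sample values were left out.

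Raw UMI counts were summed per library, or per mouse, and class. They were tested with edgeR's quasi-likelihood test (edgeR 4.0.16, R 4.3.3; TMM factors, filterByExpr, library as a block; mouse as a block in the test of group by class), two-sided, with Benjamini-Hochberg adjustment over all genes tested and a threshold of 0.05. Because the libraries are pools of mice, p-values between cell classes and between astrocytes divided by a gene measure the spread between pools. DESeq2 1.42.0 was an alternative, next to RLE factors, no filter, no block, stricter gates, a mitochondrial limit of 6%, a looser hashtag call and leaving out each library or mouse. Scaling by total UMIs, the division of unnamed barcodes by mitochondrial share, and leaving out progenitor-marker cells were chosen after seeing the data. No doublet caller was run; barcodes with both marker pairs were kept apart. Intervals and floors cover counting error only. Scripts (Python 3.11.15) were tested on simulated data. All members are named, together with up to 4 genes per list and direction with the largest difference between classes, any list gene a result turns on, and the 3 genes most like each member. The members and lists were chosen with earlier results of these data known. Windows before transcription starts are from RefSeq. Some members of the neurotrophin list are counted but not reported here by name.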

Additional observations from a re-analysis of the deposited data

Results flagged for a closer look

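Fgfr1 in astrocytes of NoFR mouse 4 was at 65.39 TMM-scaled CPM, far from the other NoFR mice at 195.0, 181.6 and 193.6. The value comes from 2 UMIs in 9 cells. It was the only one of 14 sets of 4 to 10 mice in which a mouse stood apart in this way, and chance gives about 1 in 20 such sets.

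Members were also present in barcodes outside both classes, which entered no comparison. In the 2422 unnamed barcodes, with a median of 749 UMIs, Ntrk2 was at 892.7 CPM, Ntrk3 at 65.82, Fgfr1 at 139.8, Fgfr2 at 148.7, Fgfr3 at 289.9, Fgf1 at 83.2 and Fgf2 at 17.01. These barcodes differed by library: their median mitochondrial share was 28.2, 20.5 and 2.10% in libraries 1 to 3, and Fgfr3 was at 147.6, 181.0 and 447.2. Under 6% mitochondrial UMIs, where 748 of 876 such barcodes came from library 3, Fgfr3 in that library was at 578.7 and Ntrk2 at 1087; at 6% or more, Fgfr3 was at 203.0 and Ntrk2 at 952.3 over all libraries. In the 101 barcodes with both marker pairs, Ntrk2 was at 1034, Ntrk3 at 49.73, Fgfr1 at 183.2, Fgfr2 at 291.8, Fgfr3 at 270.2, Fgf1 at 79.82 and Fgf2 at 16.36. Each of these values lay above the level that a count of 0 allows.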

How the results depend on the processing

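The members' calls between astrocytes and pericytes held when each library was left out (8 of 8 each time), with Fgf2 losing its call under the settings named with its values. All 8 calls also held without the 217 pericytes that carried smooth muscle, stromal or endothelial transcripts. With sums per mouse, which use fewer cells, the genes called went from 12505 of 15823 tested to 4969 of 7444 tested. There 7 members were tested and 6 were called. Without 1 library the genes called ranged from 11395 to 11750, of 15348 to 15535 tested.

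For Gfap, 1192 of 14563 genes were called in the fit with library as a block and 517 of 14563 by DESeq2. With no replicate block the number was 329 of 14129, and in thinned cells 142 of 11881, with 0 of 7 members. Without 1 library it was 393 to 742, of 14184 to 14333 genes tested. For Agt, 3916 of 14794 genes were called, 1760 of 14794 by DESeq2 (3 of 8 members) and 1895 of 11928 in thinned cells (3 of 7 members). Without 1 library the number was 2328 to 4213, of 14229 to 14519 genes tested (4 of 8 members each). For Igfbp2, 5735 of 14820 genes were called, 3027 of 14820 by DESeq2 and 2550 of 12067 in thinned cells (2 of 8 members). Without 1 library the number was 4182 to 5200, of 14366 to 14559 genes tested (5 of 8 members each). The sign changed in thinned cells for Fgf2 by Agt (-0.21) and Fgfr1 by Igfbp2 (-0.083), and the cause was not tested.

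Over the 6 pairs of groups, 5 genes were called in astrocytes, 2 by DESeq2, 12 with no filter, 3 with no replicate block, 0 with a looser hashtag call, 0 under 6% mitochondrial UMIs and 3 to 12 without 1 mouse. In pericytes 104 were called, 63 by DESeq2, 169 with no filter and 56 to 132 without 1 mouse. For the group effect between classes 2 were called, 0 by DESeq2, 1 with no filter, 19 with a looser hashtag call, 1 under 6% mitochondrial UMIs and 0 to 6 without 1 mouse. The sign of some uncalled differences turned: Fgfr3 for NoFR against FC with no replicate block (-0.0018), a looser hashtag call (-0.037) or without 1 mouse (-0.026 to 0.40), Fgf1 for FC against NoFC with a looser call (0.41), and Fgfr2 for FC against NoFC between classes with a looser call (0.023). Leaving out 1 mouse gave -0.67 to 0.14 for Fgfr2 in astrocytes (FR against FC), -0.16 to 0.38 for Ntrk2 (NoFR against NoFC) and -0.26 to 0.056 for Fgfr1 in pericytes (FR against NoFC). Without the block Fgf2 by Agt was not called (0.28, adjusted p = 0.06924). With 335 astrocytes assigned to mice, small differences between groups were not detectable in them.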
